A study of Mus musculus with 6 samples.

Results

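A set of 10 genes for secreted factors that act on bone-forming or vessel-forming cells were followed in mouse macrophages grown on 2 titanium surfaces. They were chosen by symbol from a table of 16171 genes: Hbegf, Osm, Lif, Vegfa, Vegfb, Tgfb1, Bmp2, Pdgfb, Igf1 and Adm, all 10 of which were in the table. Of these, 8 had enough reads to be tested, while Bmp2 and Igf1 did not. The cells were Raw264.7, a wild-type macrophage cell line, and RNA was sequenced in bulk from 6 samples. The control surface was titanium bearing titanate nanowires, produced with alkali and heat (TH, 3 samples). The other surface carried a calcium phosphate nanowire coating on titanium (THCaP, 3 samples). Samples of both surfaces were treated alike, with 12 h of incubation on the material, 1 µg/mL lipopolysaccharide (LPS, a bacterial product that activates macrophages) for 2 h and a further 1 d of culture. No sample without LPS was analysed here, and Raw264.7 is a single cell line rather than macrophages of a tissue.

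Macrophages at an implant release signals that other cells read. Oncostatin M (Osm) and leukaemia inhibitory factor (Lif) belong to the interleukin-6 family, signal through the shared receptor chain gp130 and can push mesenchymal cells towards bone formation. Heparin-binding EGF-like growth factor (Hbegf) is made as a membrane protein, is cut free by the protease ADAM17 and activates EGF receptors. Vegfa, Vegfb and adrenomedullin (Adm) act on vessels, Pdgfb recruits the mural cells around them, and Tgfb1, Bmp2 and Igf1 act on cells of the bone lineage. Vegfa and Adm are classical targets of hypoxia-inducible factor.

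The library totals were 28000099 to 30317108 counts. Of the genes in the table, 11480 were tested with edgeR's quasi-likelihood test, and a gene counted as called where its p, adjusted by Benjamini-Hochberg, was under 0.05. On the second principal component of all tested genes (13.7% of the variance) TH replicate 1 lay at 21.9, apart from the other 5 libraries at −9.61 to −0.55. On the first component (60.5%) the THCaP library nearest to TH was replicate 3. The macrophage identity of the cells was visible in their markers, all 12 of which were tested. The summed level of these markers was 4462 to 5233 CPM for TH and 4774 to 4940 CPM for THCaP. Lyz2 and Mpeg1 were called higher on THCaP, 0 were called lower and 10 were not called (median log2 fold change −0.03). Over all tested genes 11.6% were called higher and 12.0% lower. CPM are counts scaled to the size of each library with TMM factors.

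On THCaP, 7 of the 8 tested factors were called lower, 0 were called higher by edgeR and Tgfb1 was not called. At an unadjusted p under 0.05, and with DESeq2 and limma-voom, 0 were higher as well. Over all tested genes 12.0% were called lower, 11.6% higher and 23.6% in either direction. In 6 of the 8, Hbegf, Osm, Lif, Vegfa, Vegfb and Pdgfb, each THCaP library lay below each TH library, a separation seen in 21.3% of all tested genes. Hbegf and Lif were called and at least 2-fold lower, as were 1.25% of all tested genes. The median log2 fold change of the 8 factors was −0.69, beside 0.0064 over all tested genes. The number of factors called lower was 4 without TH replicate 3 or without THCaP replicate 1. Over all genes the number called lower went from 1376 to 490 and 465, respectively, with these omissions. The 4 factors called in all 15 alternative analyses were Hbegf, Osm, Lif and Pdgfb. Fewer cells making a transcript and less of it per cell cannot be told apart in bulk RNA.

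**Figure D1:**
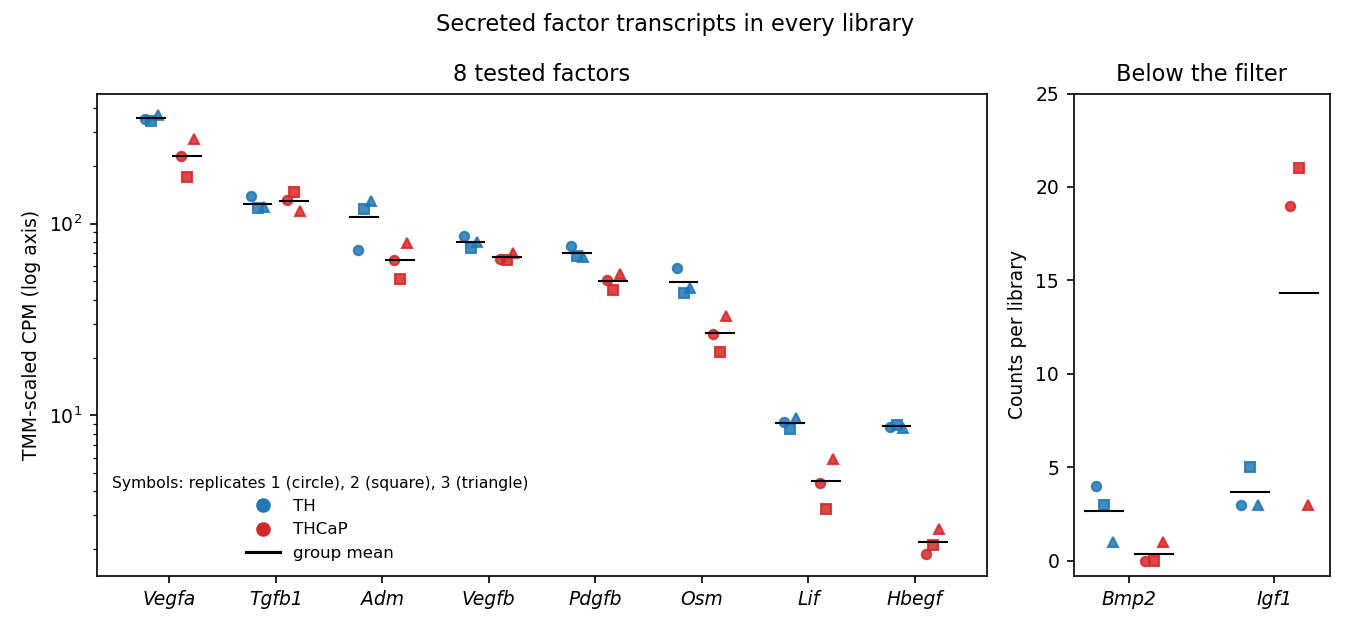
Level of each factor in every library, for the tested factors as TMM-scaled CPM on a log axis (left) and for Bmp2 and Igf1 as counts per library (right). Blue symbols are TH, red symbols THCaP, and black lines are group means over 3 libraries. The surfaces overlap for Tgfb1 and Adm, and the 3 Hbegf values on THCaP (1.89 to 2.56 CPM) lie far below those on TH (8.56 to 8.94 CPM).

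Levels can be compared between genes only per length, for which the deposited FPKM were used. On TH the order of mean FPKM was Vegfa 83.6, Adm 75.8, Vegfb 61.6, Tgfb1 56.9, Osm 25.5, Pdgfb 16.8, Hbegf 3.61, Lif 1.63, Bmp2 0.026 and Igf1 0.015. On TH the FPKM range of Adm overlapped those of Vegfa, Vegfb and Tgfb1, and the ranges of Vegfb and Tgfb1 overlapped each other. On THCaP the order began with Tgfb1 at 61.1 FPKM, ahead of Vegfa at 55.1, Vegfb at 52.9 and Adm at 47.4, and these 4 ranges overlapped. Osm (14.4 FPKM) and Pdgfb (12.4 FPKM) followed with overlapping ranges, and then Hbegf (0.937 FPKM) and Lif (0.843 FPKM), also overlapping. Vegfa ranked above 92.0% of tested genes by mean FPKM over all libraries, and Lif above 14.4%.

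Hbegf showed the largest difference of the factors tested. It stood at 8.69, 8.94 and 8.56 CPM in TH replicates 1 to 3 and at 1.89, 2.11 and 2.56 CPM in THCaP replicates 1 to 3. The TH libraries were nearly equal, and the highest THCaP value was far below the lowest TH value. The level fell 3.99-fold (95% interval 3.08 to 5.16; log2 fold change −2.00, SE 0.17, n = 3 per surface, adjusted p = 0.000707 by edgeR). The protease that releases the factor, Adam17, was lower by much less, at 229, 251 and 259 CPM for TH and 203, 183 and 197 CPM for THCaP (log2 fold change −0.34, SE 0.08, adjusted p = 0.0191 by edgeR; 0.00134 to 0.0934 over 15 alternatives, and not called without TH replicate 2 or 3 or THCaP replicate 1). Within each library the log2 ratio of Hbegf to Adam17 counts was −4.81 ± 0.098 on TH and −6.47 ± 0.24 on THCaP (mean ± SD, n = 3 each), a difference of −1.66. The surfaces did not overlap in this ratio. Its two-sided exact permutation p was 0.1, the smallest that 3 against 3 samples allow, and 0.15 after adjustment over the 3 ratios examined.

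The interleukin-6 family members Osm and Lif lie side by side on mouse chromosome 11 (GRCm38, GENCODE vM21): Osm at 4236420 to 4241026 and Lif at 4257557 to 4272514, both protein coding on the plus strand, 16530 bases apart with 0 annotated genes between them. Osm stood at 58.8, 43.6 and 46.0 CPM in TH replicates 1 to 3 and at 26.6, 21.4 and 32.8 CPM in THCaP replicates 1 to 3. TH replicate 1 was the highest library, and no THCaP library reached a TH library. Osm fell 1.84-fold (log2 fold change −0.88, SE 0.16, adjusted p = 0.00835 by edgeR). Lif was scarcer, at 9.16, 8.43 and 9.64 CPM for TH and 4.41, 3.24 and 5.93 CPM for THCaP. It fell 2.00-fold (−1.00, SE 0.21, adjusted p = 0.0113 by edgeR), again without overlap. The neighbours kept a similar proportion: the log2 ratio of Osm to Lif counts was 2.43 ± 0.22 on TH and 2.59 ± 0.12 on THCaP (n = 3 each), the surfaces overlapped, and the difference of 0.16 had an exact permutation p of 0.3 (0.3 adjusted over the 3 ratios). Such a p does not show that the ratio was equal.

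Promoter sequences are shown for 3 of the factors that were called lower together, Lif, Vegfa and Adm, a cytokine, a growth factor and a peptide hormone. They are from RefSeq (GRCm38.p6), 5′ to 3′ on the strand of the gene, and cover the 250 bases before the annotated start; 6 of the 10 factors had an entry (Lif, Vegfa, Vegfb, Tgfb1, Igf1 and Adm). Capitals mark matches on either strand to any of 5 motifs: AP-1 (TGANTCA), the cyclic AMP response element (TGACGTCA), the hypoxia response element core (ACGTG), a STAT site (TTCNNNGAA) and the NF-κB consensus. The windows are chr11:4257318-4257567 (plus strand) for Lif, chr17:46032378-46032627 (minus strand) for Vegfa and chr7:110627407-110627656 (plus strand) for Adm.
Lif: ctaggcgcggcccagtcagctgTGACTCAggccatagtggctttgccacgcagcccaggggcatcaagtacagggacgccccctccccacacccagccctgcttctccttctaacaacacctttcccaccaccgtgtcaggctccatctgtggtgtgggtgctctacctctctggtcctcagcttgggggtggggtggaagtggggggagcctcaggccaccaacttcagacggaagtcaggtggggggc
Vegfa: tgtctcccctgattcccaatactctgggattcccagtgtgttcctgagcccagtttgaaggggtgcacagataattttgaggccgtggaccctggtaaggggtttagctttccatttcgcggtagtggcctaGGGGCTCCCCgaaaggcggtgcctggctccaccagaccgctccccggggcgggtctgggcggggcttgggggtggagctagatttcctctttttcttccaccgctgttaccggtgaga
Adm: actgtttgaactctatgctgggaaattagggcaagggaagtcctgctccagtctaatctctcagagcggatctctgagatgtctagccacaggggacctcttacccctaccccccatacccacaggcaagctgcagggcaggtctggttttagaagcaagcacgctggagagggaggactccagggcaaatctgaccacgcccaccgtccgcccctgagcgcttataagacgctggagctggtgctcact
The Lif window held an AP-1 match starting 228 bases before the start, a motif found in 6.73% of 32544 promoter windows of that length. The Vegfa window held an NF-κB match 118 bases before the start, found in 3.92% of windows. A second annotated Vegfa start, not shown, lies inside the gene, which spans 46016993 to 46032369. Its window (chr17:46025164-46025413) held a hypoxia response element core 211 bases before that start, a motif in 16.6% of windows. That match is therefore within the gene, not upstream of it. The Adm, Vegfb and Tgfb1 windows held 0 matches, and that of Igf1 had an AP-1 match 37 bases before the start. The cyclic AMP element occurred in 1.55% and the STAT site in 7.04% of windows. No matches shown overlap each other, and a match is a description of letters, not of a bound site.

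Vegfa, the main growth factor for endothelial cells, had the highest mean FPKM of the factors on TH. It stood at 354, 345 and 367 CPM in TH replicates 1 to 3 and at 227, 175 and 276 CPM in THCaP replicates 1 to 3. The TH libraries were close together (coefficient of variation 3.10%) and the THCaP libraries spread widely (22.6%), with replicate 3 nearest to TH, yet the surfaces did not overlap. Vegfa fell 1.57-fold (log2 fold change −0.65, SE 0.14, adjusted p = 0.0139 by edgeR). The adjusted p was 0.0546 without TH replicate 3 and 0.0526 without THCaP replicate 1, within a range of 0.000104 to 0.0546 over 15 alternatives.

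Its relative Vegfb, which binds the receptor Flt1, was lower by less. Vegfb stood at 86.3, 75.0 and 80.0 CPM for TH and at 65.2, 64.4 and 70.2 CPM for THCaP, without overlap (1.21-fold lower; log2 fold change −0.27, SE 0.08, adjusted p = 0.0417 by edgeR). This call was the least stable of the 7: it was lost in 9 of 15 alternatives (adjusted p 0.0205 to 0.162 over all 15), among them scaling by library totals (log2 fold change −0.22, adjusted p = 0.0790), both FPKM analyses and the omission of any library but THCaP replicate 3. Within libraries the log2 ratio of Vegfa to Vegfb counts was 2.14 ± 0.096 on TH and 1.74 ± 0.27 on THCaP (n = 3 each), a difference of −0.41 without overlap. Its exact permutation p was 0.1, the smallest possible, and 0.15 adjusted over the 3 ratios. Without THCaP replicate 2 the difference was −0.26.

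Adm, a vasodilator peptide that also promotes vessel growth, varied most of the tested factors among the TH libraries. It stood at 73.1, 119 and 131 CPM in TH replicates 1 to 3 and at 64.6, 51.3 and 78.8 CPM in THCaP replicates 1 to 3. TH replicate 1 was below THCaP replicate 3, so that the surfaces overlapped. Adm was 1.66-fold lower on THCaP (log2 fold change −0.73, SE 0.21, adjusted p = 0.0351 by edgeR). The call was lost in 7 of 15 alternatives (adjusted p 0.00174 to 0.126 over all 15), among them the omissions of TH replicates 2 (0.116) and 3 (0.126) and of THCaP replicates 1 (0.0947) and 2 (0.116). Without TH replicate 1 the log2 fold change was −0.95 (adjusted p = 0.0168).

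Pdgfb, the ligand that draws pericytes to new vessels, stood at 76.2, 67.6 and 66.9 CPM for TH and at 50.7, 45.2 and 54.8 CPM for THCaP. The libraries of each surface were close together and did not overlap between surfaces. Pdgfb fell 1.40-fold (95% interval 1.21 to 1.62; log2 fold change −0.48, SE 0.10, adjusted p = 0.0103 by edgeR).

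Tgfb1, a growth factor stored in latent form in bone matrix, was the tested factor that was not called. It stood at 139, 120 and 122 CPM for TH and at 133, 146 and 117 CPM for THCaP, and the surfaces overlapped. The log2 fold change was 0.05 (95% interval −0.18 to 0.28; SE 0.10, adjusted p = 0.738 by edgeR), which leaves room for a change of up to 1.21-fold upwards or 1.13-fold downwards.

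**Figure D2:**
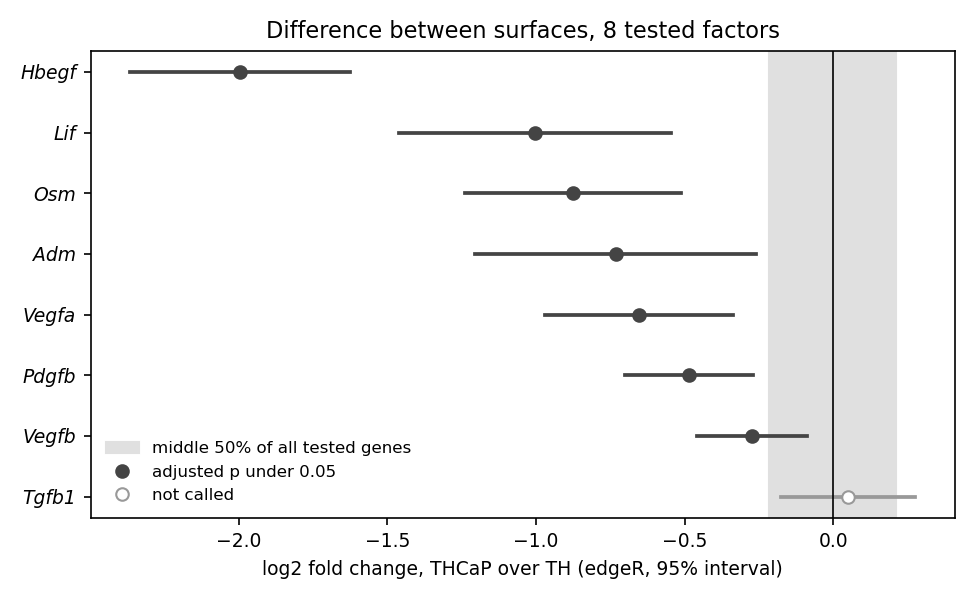
Log2 fold change of the 8 tested factors, THCaP over TH, with its 95% interval from the edgeR fit over all 6 libraries. Filled points were called at an adjusted p under 0.05, and the grey band is the middle 50% of all tested genes (−0.22 to 0.21). Hbegf lies at −2.00, away from the other factors, and the interval of Tgfb1 spans 0.

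Bmp2 and Igf1 were close to the limit of detection. Bmp2, a strong inducer of bone formation, had 4, 3 and 1 counts in TH replicates 1 to 3 and 0, 0 and 1 counts in THCaP replicates 1 to 3. A count of 0 allows a level of up to 3 counts, at most 0.105 CPM in the THCaP libraries that had 0, so no difference was measurable at this depth. Igf1, a growth factor of bone and muscle, had 3, 5 and 3 counts on TH and 19, 21 and 3 counts on THCaP. Both surfaces therefore held a library with 3 counts, and the higher values were confined to THCaP replicates 1 and 2. With no filter on low counts the edgeR adjusted p was 0.160 for Bmp2 and 0.0631 for Igf1. Igf1 was called only without THCaP replicate 3 (adjusted p = 0.00528), the library that lacked the higher count. It passed the filter also without each of the TH libraries, with adjusted p from 0.140 to 0.192.

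The libraries of THCaP were ordered alike by most of the factors. For Osm, Lif, Vegfa, Vegfb, Pdgfb and Adm, THCaP replicate 3 was nearest to the TH mean and THCaP replicate 2 farthest. This order was not particular to the factors. On the first principal component of all tested genes THCaP replicates 3, 1 and 2 lay at 5.17, 19.3 and 35.9, beside −22.2 to −16.3 for TH. Lif, as log2 of its CPM over the TH mean, stood at −0.61 in THCaP replicate 3, −1.04 in replicate 1 and −1.48 in replicate 2. For Hbegf replicate 3 was also nearest (−1.77), but replicate 1 was farthest (−2.21). Tgfb1 went the other way, highest in THCaP replicate 2 (0.20) and lowest in replicate 3 (−0.13). Across the 3 TH libraries the factors were not ordered alike: TH replicate 1 was the highest of the 3 for Osm, Vegfb, Pdgfb and Tgfb1 and the lowest for Adm.

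**Figure D3:**
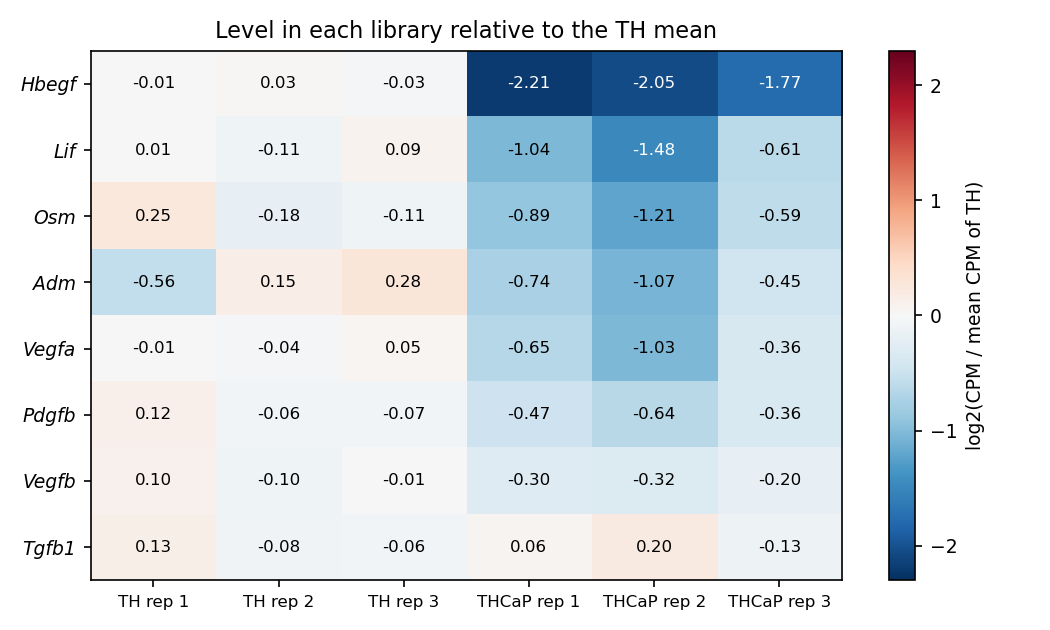
Level of each tested factor in each library as log2 of its CPM over the mean CPM of the TH libraries. Rows are factors and columns libraries; blue is below and red above the TH mean. The THCaP columns are blue for 7 factors, palest in replicate 3 (for Lif −0.61 beside −1.48 in replicate 2), and TH replicate 1 is low for Adm (−0.56).

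For each called factor the genes with the most similar level over the 6 libraries were looked up, by Pearson r of log2 CPM. These values describe likeness in 6 libraries of 2 surfaces, so the difference between surfaces is part of them. Hbegf was most like Ehd1 (r = 0.999), an endosomal trafficking gene that was also lower on THCaP (log2 fold change −0.89, SE 0.08, adjusted p = 0.000707 by edgeR), followed by Rsrc2 and Hook2. Osm was most like Phf1, Plekho1 and the neutrophil chemokine Cxcl2, and Lif most like Zfp954, Hacd1 and the maturation marker Cd83. The genes most like Vegfa included Pheta1 and the lysosomal gene Slc17a5, and Pdgfb was most like B4galt7, Gpr132 and Hk3. Vegfb was most like Ccdc84 and the ribosomal protein genes Rpl9 and Rps27, and Adm most like Arl5b, Bend4 and Lats2. Of these similar genes, Ccdc84 (log2 fold change −0.10, adjusted p = 0.440 by edgeR) and Lats2 (−0.24, adjusted p = 0.124 by edgeR) were not called. Among the factors themselves Lif and Vegfa were closest (r = 0.996), then Osm and Pdgfb (r = 0.995), while no factor came nearer to Adm than Vegfa (r = 0.843).

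The tested receptors for the factors were largely those of the TGF-β family, beside the neuropilins, gp130, Lifr, Igf2r and Calcrl. Of 27 receptor genes 26 were in the table and 14 were tested, of which 3 were called higher and 3 lower (median log2 fold change −0.13). Over all tested genes 11.6% were called higher and 12.0% lower. Nrp1 and Nrp2, co-receptors for VEGF, moved in opposite directions. Nrp1 rose 2.35-fold, from 4.48, 4.36 and 4.26 CPM on TH to 10.1, 11.5 and 9.17 CPM for THCaP (log2 fold change 1.23, SE 0.14, adjusted p = 0.00195 by edgeR). Nrp2, far more abundant at 92.0 FPKM on TH beside 0.441 FPKM for Nrp1, fell 1.41-fold, from 760 ± 67.9 to 539 ± 29.2 CPM (−0.50, SE 0.09, adjusted p = 0.00771 by edgeR). Il6st, which encodes gp130, was called lower at −0.51 with overlapping surfaces (SE 0.15, adjusted p = 0.0357 by edgeR), a call lost in 6 of 15 alternatives (adjusted p up to 0.130). The mannose 6-phosphate receptor Igf2r was called lower at −0.61 and was not called without TH replicate 2 or 3 or THCaP replicate 1. Tgfbr1 (0.37) and Acvr1 (0.38) were the other receptors called higher, named after their values were seen, and neither was called without any 1 of those same 3 libraries, nor Acvr1 without THCaP replicate 2. Tgfbr2, among the most abundant receptors, was not called (−0.12, adjusted p = 0.312 by edgeR). Signalling receptors for several of the factors were barely counted: summed over the TH and the THCaP libraries there were 2 and 1 counts of Egfr, 1 and 0 of Osmr, 5 and 3 of Kdr, 2 and 0 of Flt1, 1 and 0 of Pdgfra and 0 and 1 of Igf1r. Lifr, in contrast, had 1431 and 1875 counts (log2 fold change 0.35, adjusted p = 0.0689 by edgeR; 0.0201 to 0.176 over 15 alternatives).

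Some genes that release, activate or bind the factors were called lower. Of 26 listed, 22 were in the table and 16 were tested. Of those, 5 were called lower and 1 higher (median −0.19), beside 12.0% lower and 11.6% higher over all tested genes. The lists were not compared by a test. The iRhom genes Rhbdf1 (log2 fold change −0.66, SE 0.14) and Rhbdf2 (−0.41, SE 0.07), which carry ADAM17 to the cell surface, were called lower beside Adam17 itself. Furin, the protease that processes the precursors of TGF-β and ADAM17, stood at 236 ± 14.1 CPM for TH and 157 ± 32.2 CPM for THCaP (−0.58, SE 0.13, adjusted p = 0.0173 by edgeR). Cd9, a partner of the membrane form of HB-EGF, was called lower at −0.32 (SE 0.08), and the IGF-binding protein gene Igfbp4 was called higher at 0.38 (SE 0.10). Of these, Rhbdf2 alone was called in all 15 alternatives; Rhbdf1, Furin, Cd9 and Igfbp4 were not called without TH replicate 2 or 3 or THCaP replicate 1. Adam10, another sheddase, was not called (0.18, adjusted p = 0.117 by edgeR; 0.0455 to 0.304 over 15 alternatives, called higher with library totals and in both FPKM analyses).

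Other ligands of the same families were mostly undetected. Of 32 listed, 25 were in the table and 7 were tested, of which 3 were called lower and 0 higher by edgeR (median −0.16). At an unadjusted p under 0.05 there was 1 higher, and with DESeq2 and limma-voom 0. Over all tested genes 12.0% were called lower and 11.6% higher by edgeR. Placental growth factor, Pgf, a VEGF relative, stood at 5.55, 6.63 and 7.09 CPM for TH and 2.28, 1.74 and 3.95 CPM for THCaP (−1.27, SE 0.27, adjusted p = 0.0136 by edgeR). Pdgfa was called lower at −0.75 (SE 0.22, adjusted p = 0.0381 by edgeR), and the interleukin-27 subunit gene Il27 at −1.15 (SE 0.29, adjusted p = 0.0230 by edgeR). Without TH replicate 2 or 3 or THCaP replicate 1 none of these 3 was called, and Pdgfa also lost the call without TH replicate 1 or THCaP replicate 2 and on the log2(FPKM + 0.1) scale.

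**Figure D4:**
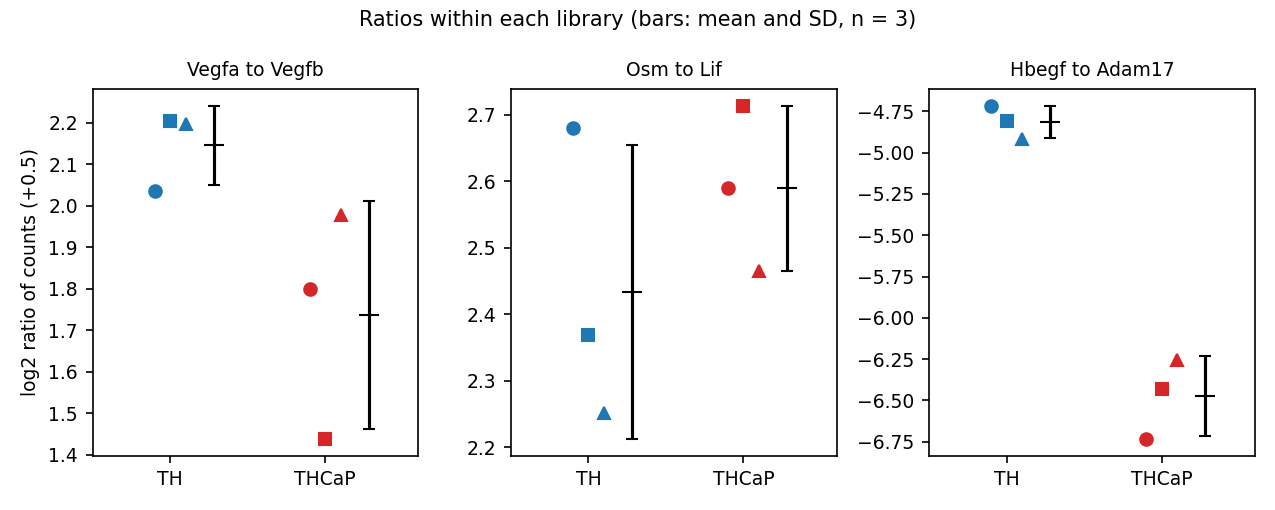
Log2 ratio of counts (0.5 added to each) of Vegfa to Vegfb, Osm to Lif and Hbegf to Adam17 in each library. Symbols are libraries, and black bars the mean and SD of 3. The THCaP libraries lie below the TH libraries for Vegfa to Vegfb and Hbegf to Adam17 (differences of −0.41 and −1.66) and overlap them for Osm to Lif.

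Downstream genes of the same pathways are given by pathway, beside 12.0% called lower and 11.6% called higher over all tested genes; the pathways were not compared by a test. All 17 genes of interleukin-6 family signalling were tested, and 8 were called lower and 0 higher by edgeR (0 higher also at an unadjusted p under 0.05, with DESeq2 and with limma-voom; median −0.38). Cish, an inhibitor of cytokine signalling, stood at 1.66 ± 0.22 CPM for TH and 0.638 ± 0.028 CPM for THCaP (−1.38, SE 0.26, adjusted p = 0.0091 by edgeR). Bcl3, an NF-κB co-regulator, stood at 24.6, 29.1 and 26.4 CPM for TH and 12.1, 11.3 and 12.6 CPM for THCaP (−1.15, SE 0.11, adjusted p = 0.000787 by edgeR). The kinase gene Pim1 (−0.92, SE 0.12), the AP-1 gene Junb (−0.78, SE 0.11) and the survival gene Mcl1 (−0.57, SE 0.10) were lower as well, and these 5 were called in every alternative that tested them. The 9 genes of the list that were not called included Stat3, Socs3, Cebpd and Jak1, named after their values were seen. Stat3 stood at −0.25 (adjusted p = 0.0599 by edgeR) and Socs3 at −0.18 with overlapping surfaces (adjusted p = 0.330 by edgeR).

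For TGF-β and BMP signalling, 17 of 20 genes were tested, with 5 called lower and 2 higher (median −0.17). The repressor Tgif1 (−0.75, SE 0.13) was called lower in all 15 alternatives. The inhibitor Smad7 (−0.52, SE 0.14) was called lower, and Pmepa1, a target that restrains the pathway, was called higher from a low level, 0.862 ± 0.39 to 2.59 ± 0.47 CPM (1.59, SE 0.33, adjusted p = 0.0113 by edgeR; 0.0519 without TH replicate 3, within 0.000154 to 0.0519 over 12 alternatives). Of the BMP target genes, Id2 was called lower (−0.38, SE 0.10, adjusted p = 0.0242 by edgeR) and Id3 was not (0.01, SE 0.13, adjusted p = 0.977 by edgeR). Smad7 and Id2 were each lost in 4 of 15 alternatives, all of them omissions of a library: TH replicates 2 and 3 and THCaP replicate 1 for both, with THCaP replicate 2 for Smad7 and TH replicate 1 for Id2.

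Of 21 hypoxia-inducible factor genes and targets, 20 were tested, 4 were called lower and 0 higher by edgeR (0 higher also with DESeq2, with limma-voom and at an unadjusted p under 0.05; median −0.18). The oxidoreductase gene Ero1a stood at 1507, 2166 and 2165 CPM for TH and 1175, 916 and 1390 CPM for THCaP (−0.75, SE 0.17, adjusted p = 0.0169 by edgeR). TH replicate 1 was the lowest TH library for Ero1a, as it was for Adm. Ndrg1 (−0.58, SE 0.16), the prolyl hydroxylase gene P4ha1 (−0.38, SE 0.10) and the glucose transporter Slc2a1 (−0.34, SE 0.09) were also called lower, whereas the abundant glycolytic genes Pgk1 (−0.22, adjusted p = 0.0832 by edgeR; called only without THCaP replicate 3) and Ldha (0.10, adjusted p = 0.320 by edgeR) were not. All 4 calls were lost without TH replicate 2 or 3 or THCaP replicate 1 (highest adjusted p 0.112), and that of Slc2a1 also without TH replicate 1 or THCaP replicate 2.

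Of 25 other secreted proteins linked to bone or vessels, 20 were in the table and 12 were tested. Of those, 4 were called lower and 1 higher (median −0.46), beside 12.0% lower and 11.6% higher over all tested genes. Spp1, which encodes osteopontin, fell from 1365, 1354 and 1395 CPM to 720, 653 and 764 CPM (−0.94, SE 0.08, adjusted p = 0.000707 by edgeR). The gelatinase gene Mmp9 (−1.88, SE 0.26) and the urokinase gene Plau (−0.83, SE 0.13) were lower too, and these 3 were called in every alternative that tested them. Angptl4, an inhibitor of lipoprotein lipase, was called higher (2.35 ± 0.68 to 4.31 ± 0.59 CPM; 0.87, SE 0.23, adjusted p = 0.0283 by edgeR), a call lost in 4 of 14 alternatives, each an omission, of TH replicates 2 and 3 and of THCaP replicates 1 and 2. Granulin, Grn, was not called (−0.27, adjusted p = 0.0613 by edgeR; called lower with DESeq2 and without THCaP replicate 3).

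**Figure D5:**
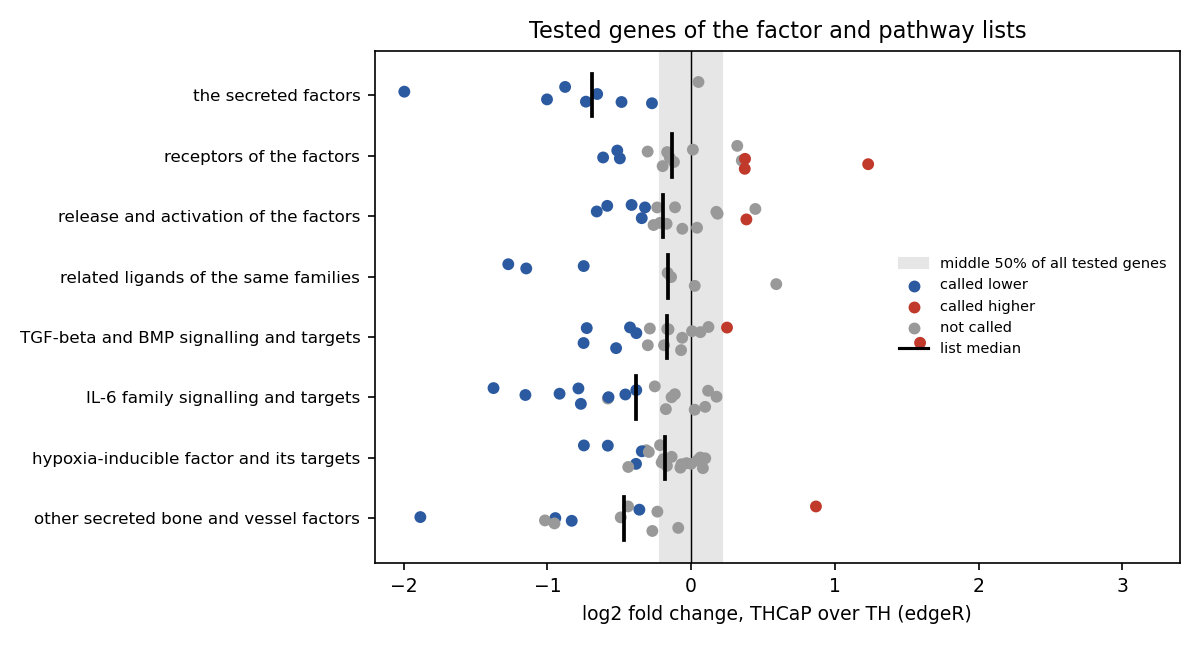
Log2 fold change, THCaP over TH, of each tested gene of the factor list and 7 pathway lists. Each point is a gene, coloured by its edgeR call, black bars are list medians and the grey band is the middle 50% of all tested genes (−0.22 to 0.21). The factor list has the lowest median (−0.69) of these lists, which were not compared by a test.

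The markers of osteoblast and stromal, lymphoid and endothelial cells had low summed levels, and those of osteoclasts did not. The samples were a single macrophage cell line, so the osteoclast sum does not show a separate osteoclast population. Mmp9, in the osteoclast list, is also among the secreted proteins above. The 10 osteoblast and stromal markers in the table summed to 1.87 to 2.41 CPM for TH and 1.67 to 2.05 CPM for THCaP, with Lum at 0 counts, and the 6 lymphoid markers to 1.34 to 1.50 CPM for TH and 0.784 to 1.20 CPM for THCaP. The 8 endothelial markers summed to 5.37 to 6.52 CPM for TH and 3.11 to 5.08 CPM for THCaP, of which most was Pecam1, a gene that macrophages also express, while Cdh5 had 3 and 6 counts over the TH and THCaP libraries. The counts held 8 osteoclast markers, of which 7 were tested and 3 were called lower, beside 12.0% of all tested genes. The osteoclast list summed to 297 to 343 CPM for TH and 285 to 338 CPM for THCaP. The part of other cell types in the factor levels was not tested.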

How the data were processed

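RNA of 3 TH and 3 THCaP samples was analysed, grouped and numbered by their labels. Whole-number counts per gene symbol were deposited by the authors without normalisation. Per the submitters' processing notes they come from fastp, HISAT2 and HTSeq on build mm10; versions, annotation and strand setting are unknown here, so reads of Adm, Igf1 and Pdgfb cannot be told apart from those of overlapping antisense genes. FPKM were deposited by the authors and served for levels between genes and for alternatives. The count test was run with edgeR 4.0.16 (R 4.3.3) after filterByExpr, whose minimum was 10 counts per library and 15 in all, with TMM factors, a robust quasi-likelihood F test over all 6 samples without covariate, and Benjamini-Hochberg adjustment over 11480 genes. The SE follows from the log2 fold change and its F statistic. The labels do not say whether samples of a surface were separate cultures, so p-values measure only the spread between these samples. Sample pairs within a surface differed by more than sampling noise (chi-square per degree of freedom 3.84 to 48.4). The 3 ratios used counts plus 0.5. Intervals and floors of counts cover counting error only where they rest on counts alone.

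The factors and lists were chosen with earlier results of these data known. Named genes were the 10 factors, up to 4 called genes of largest change (at least 1 CPM) and the 2 of highest FPKM per list, and the 3 genes (at least 5 CPM) most like each called factor. The test was checked on simulated data. Alternatives were DESeq2 1.42.0, limma-voom (limma 3.58.1), RLE factors, library totals, no filter, the replicate number as a block, a filter of 5 CPM in 3 libraries, limma on log2(FPKM + 1) or with 0.1 in place of 1 (mean FPKM of at least 1), and each library left out in turn. Some named genes are not reported here.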

Additional observations from a re-analysis of the deposited data

How the results depend on the processing

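Of 7 factors called lower, 4 kept the call in all 15 alternatives, and 22 of 59 named genes that were called kept it in every alternative that tested them. Leaving out a library in turn gave 465 to 2020 genes lower and 291 to 2145 higher over all genes, 4 to 7 factors lower and 0 to 1 higher, and 13 to 46 pathway genes lower (32 with all libraries) and 1 to 8 higher (7 with all). Each library thus weighs on the counts, and 3 libraries a surface limit the precision. The differences in log2 ratio ran from −0.53 to −0.26 for Vegfa to Vegfb, from 0.065 to 0.28 for Osm to Lif and from −1.77 to −1.53 for Hbegf to Adam17. Tgfb1, at −0.028 to 0.13 over the omissions of a library, turned below 0 without THCaP replicate 2. Id3, at 0.0064 and at −0.13 to 0.13 over the omissions, turned to −0.0056 with limma-voom, −0.0040 with the 5 CPM filter, −0.0049 with the replicate block, −0.053 without TH replicate 2, −0.0057 without TH replicate 3 and −0.13 without THCaP replicate 2; the cause was not tested. Same-numbered samples did not deviate together (r = −0.020, −0.072 and 0.060 for replicates 1 to 3). With 3 samples a surface these values cannot decide whether the numbers pair samples, and the labels do not say. With the replicate block the count of factors lower was 6, since Vegfb was not called (adjusted p = 0.0609 by edgeR, within 0.0205 to 0.162 over its alternatives). The adjusted p of those 6 was smaller with the block than without it, 3.6e-06 for Hbegf and 0.00303 for Adm by edgeR. Over all genes the block gave 1457 lower and 1424 higher. For the ratios, the sign-flip test of the replicate block gave exact p of 0.25 for Vegfa to Vegfb, 0.5 for Osm to Lif and 0.25 for Hbegf to Adam17, with 0.25 the smallest that 3 pairs allow.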
